A study of Mus musculus with 4 samples.

Results

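Insulin and the insulin-like growth factors act on cells through a small set of ligands, receptors, carrier proteins and adaptors, and 10 genes of this set are described here in cultured palatal mesenchyme. The genes were Irs1, Irs2, Insr, Igf1r, Igf1, Igf2, Igfbp2, Igfbp3, Igfbp4 and Igfbp5. They were taken by symbol from the platform annotation, as every probe set whose only listed symbol was one of these. All 10 genes were found, with 27 probe sets, out of 18193 genes with such a probe set on the array. Irs1 was chosen by its lower signal with TGF-beta2, so its values in that comparison are a description and support nothing.

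The cells were primary mesenchymal cultures grown from mouse palates at embryonic day 14, a stage of palatal shelf growth, and the mice were outbred and wild-type. The untreated culture received neither ligand nor inhibitor, and the TGF-beta2 culture received TGF-beta2 for 120 minutes. Another culture received SB431542, an inhibitor of the TGF-beta type I receptor kinase, for 60 minutes and TGF-beta2 for 120 minutes. The last received 5Z-7-Oxozeaenol (oxozeaenol below), an inhibitor of the kinase Tak1, on the same schedule. No sample analysed here had an inhibitor without TGF-beta2, the labels name no vehicle control, and they do not say how many embryos gave a culture. Each of the 4 groups was 1 array, so no difference below has a replicate check, and no p-value is given.

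As background, insulin binds the receptor encoded by Insr, and both IGF ligands bind the related receptor encoded by Igf1r. The activated receptors phosphorylate the adaptors Irs1 and Irs2, which recruit phosphatidylinositol 3-kinase and so switch on Akt and mTOR and keep FoxO transcription factors out of the nucleus. The IGF-binding proteins hold the ligands outside the cell and are cut by proteases that free them. In the embryo, the IGF ligands and Igf1r set growth, and mesenchymal cells are a known source of both ligands and binding proteins.

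Signals are intensities on a linear scale that had been brought to a trimmed mean of 500.0 on every array before deposit. A difference is given as the log2 of one array's signal over another's, after 21.7, the 25th percentile of all signals, was added to each, which makes differences of dim genes look smaller. A gene was kept when a probe set had a mean log2 value at or above the median probe set, a signal of about 66.1 over the 4 arrays, and the brightest kept probe set stood for it. This left 11744 genes, with all 10 described here among them, and 26 of their 27 probe sets. Signals of different genes were not set against each other, since probe sets differ in how well they bind.

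Of 13 palatal mesenchyme markers, 11 were kept, and their summed signal lay between 82124 (untreated) and 95347 (SB431542). The regulators Osr2 and Tbx22 stayed under the filter level in the mean over arrays, with signals of at most 30.4 and 28.5. Of 16 macrophage markers, 15 were kept, with a summed signal of 88975 (untreated), 84864 (TGF-beta2), 85213 (SB431542) and 73954 (oxozeaenol), and Cd163 was the 1 under the filter level. The 7 kept of 10 epithelial markers summed to 1902, 1834, 1899 and 5595 in the same order. The higher sum with oxozeaenol came from the keratin genes Krt14, at 141, 295, 275 and 2218, and Krt5, at 195, 233, 258 and 1383. The other 5 were within 2-fold of untreated there, with Epcam at 369 untreated and 366 with oxozeaenol. Krt15, Trp63 and Esrp1 of that list were under the filter level in the mean over arrays, but read 524, 128 and 92.7 on the oxozeaenol array, above it. Of 8 endothelial markers 3 were kept, with sums between 332 (oxozeaenol) and 616 (SB431542), and Pecam1 and Cdh5 were under the filter level. Of 7 skeletal muscle markers 3 were kept, with sums between 1196 (untreated) and 1497 (SB431542), and Myog, Myf5, Ckm and Pax7 were under it. The part of other cell types in the levels below was not tested.

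Irs1, the adaptor that gives the set its main difference, read 1073 in the untreated culture, 331 after TGF-beta2, 1303 where SB431542 preceded it and 1781 where oxozeaenol did. The TGF-beta2 array was thus the low one, and the highest signal was 5.38 times its value. Against untreated, Irs1 was 3.10-fold lower with TGF-beta2, a log2 difference of −1.63. That was the 7th largest decrease among 11744 genes, of which 0.366% were at least 2-fold lower. Without the added constant the signals differed 3.24-fold. The array carries 1 probe set for Irs1 (1423104_at), so no second probe set bears on this value. The palate marker sum was 82124 untreated and 83685 with TGF-beta2. Bright genes such as Vim (19144 untreated) and Col1a2 (17662) carry much of it. The median of the 11 kept markers was −0.16 with TGF-beta2, against −0.03 over all genes. Osr1 (−1.39), Pdgfra (−1.09, lower in 2 of 3 probe sets), Shox2 (−0.80), Twist1 (−0.69) and Prrx1 (−0.34) were lower. Pax9 (−0.16) and Msx1 (−0.09) were lower too, while Col1a1, Col1a2, Col3a1 and Vim were higher, by 0.11 to 0.27. Over TGF-beta2 alone, the marker median was 0.53 with SB431542 and 0.21 with oxozeaenol. The part of these genes in the Irs1 values was not tested.

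With SB431542, Irs1 was 3.76-fold higher than with TGF-beta2 alone (log2 1.91), and 0.613% of genes were at least 2-fold higher in that comparison. With oxozeaenol it was 5.11-fold higher (log2 2.35), against 1.82% of genes at least 2-fold higher. These differences use the same TGF-beta2 array that led to the choice of Irs1, and a low reading there alone would enter all 3 of them. The comparisons that leave this array out were smaller. Against untreated, Irs1 differed by 0.28 with SB431542, below the 95th percentile of all genes (0.46). With oxozeaenol it differed from untreated by 0.72, a 1.65-fold higher level and above the 95th percentile (0.63). Between the inhibitors the difference was 0.44, higher with oxozeaenol, inside the middle 90% of genes. The oxozeaenol array had the high epithelial marker sum (5595) and the lowest macrophage marker sum (73954). The part of either sum in the Irs1 values was not tested. Of the 43 genes at least 2-fold lower with TGF-beta2, 17 were at least 2-fold higher with each inhibitor than with TGF-beta2 alone, Irs1 included, and 9 of the 17 also lay above untreated with each inhibitor. The 43 were picked on the TGF-beta2 array, which also enters both of those inhibitor comparisons. A low reading there alone would raise the 17, so these counts are a description. The share of all genes passing both inhibitor comparisons was not taken.

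Irs2, the second adaptor of the same receptors, did not follow this pattern. Its 1 probe set (1443969_at) read 230 (untreated), 273 (TGF-beta2), 239 (SB431542) and 381 (oxozeaenol). The oxozeaenol array was the high one and the other 3 were close. The log2 difference with TGF-beta2 was 0.23, on the opposite side of 0 from Irs1. With oxozeaenol, Irs2 was higher than untreated by 0.68 on the log2 scale and higher than with SB431542 by 0.63, or 1.54-fold. The first lay above the 95th percentile of all genes (0.63), and the second just under it, and both were under 2-fold. The rise in the epithelial marker sum fell on the same array, and its part in the Irs2 value was not tested.

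**Figure D1:**
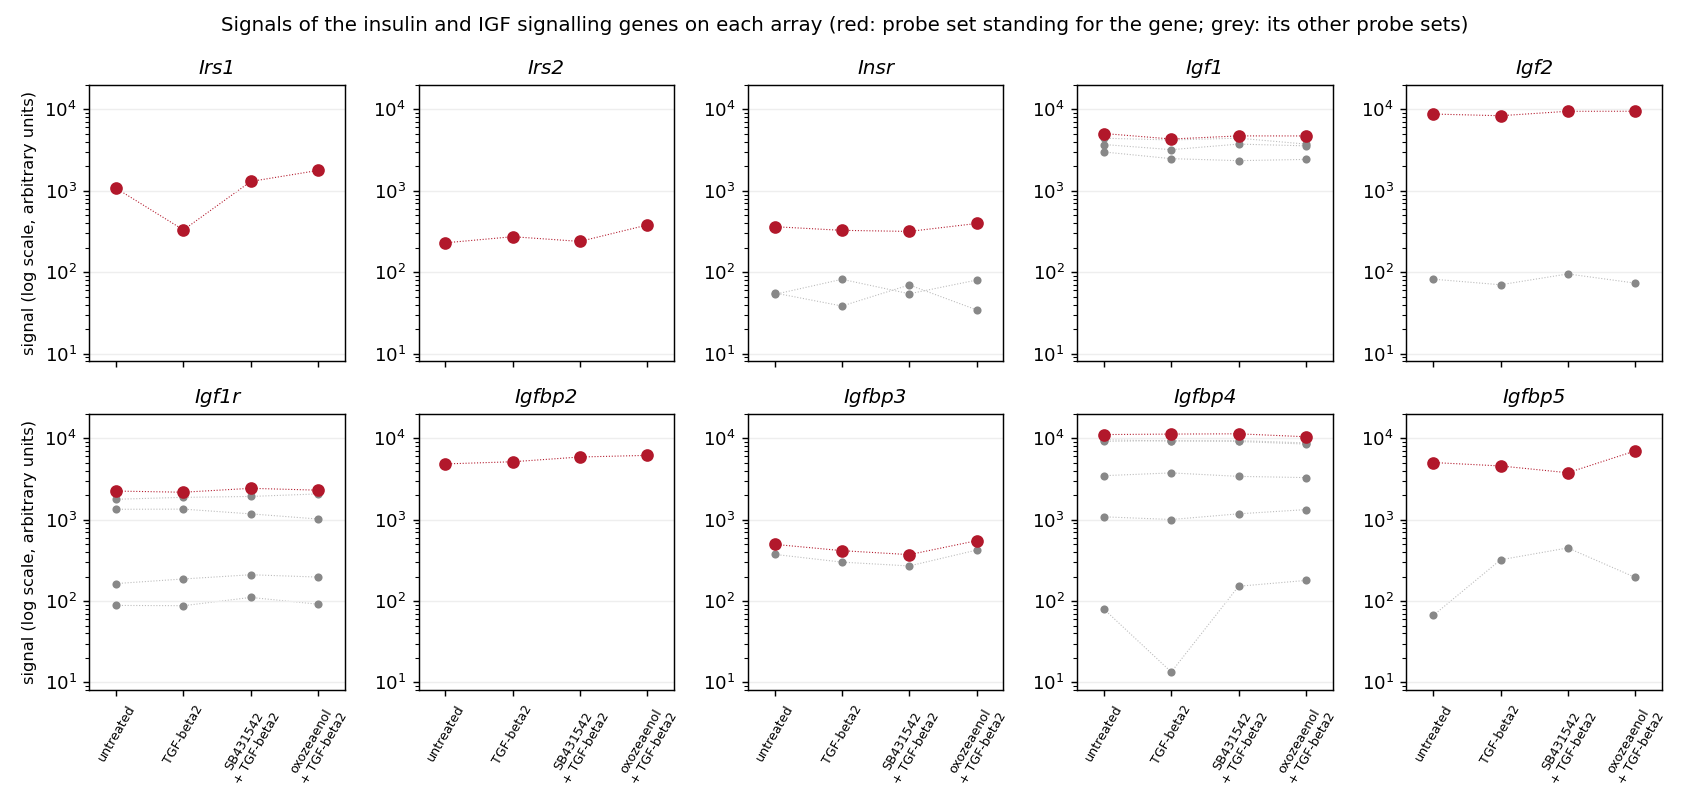
Signal of every probe set of the 10 genes on each of the 4 arrays, on a log axis in arbitrary units. Each panel is a gene, the large red points are the probe set that stands for it, the small grey points are its other probe sets, and dotted lines join the points of a probe set. Irs1 drops to 331 on the TGF-beta2 array, while the red points of each other gene span at most 1.85-fold.

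The sequences just upstream of the Irs1 and Irs2 start sites are shown because these adaptors share a function and their TGF-beta2 values differed. Over untreated, the log2 difference with TGF-beta2 was −1.63 for Irs1, which was chosen by its decrease there, and 0.23 for Irs2. The Irs2 value was inside the band of most genes (−0.46 to 0.46). Each value rests on 1 probe set and 1 array per group, so whether the genes differ in response to TGF-beta2 was not tested. Both sequences come from RefSeq (GRCm38.p6) and hold the 250 bases before the annotated start, 5′ to 3′ on the gene's own strand. The Irs1 window is chr1:82291440-82291689 and the Irs2 window is chr8:11008930-11009179, both on the minus strand. Capitals mark the 10-base word GTCACGTGTT, which holds the E-box CACGTG, and the Smad-box letters CAGAC on either strand (GTCTG on the other).
Irs1: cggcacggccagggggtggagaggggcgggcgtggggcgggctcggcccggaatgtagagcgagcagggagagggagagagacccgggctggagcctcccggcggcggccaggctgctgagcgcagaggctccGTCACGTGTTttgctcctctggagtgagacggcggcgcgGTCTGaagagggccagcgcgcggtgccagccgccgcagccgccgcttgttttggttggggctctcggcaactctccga
Irs2: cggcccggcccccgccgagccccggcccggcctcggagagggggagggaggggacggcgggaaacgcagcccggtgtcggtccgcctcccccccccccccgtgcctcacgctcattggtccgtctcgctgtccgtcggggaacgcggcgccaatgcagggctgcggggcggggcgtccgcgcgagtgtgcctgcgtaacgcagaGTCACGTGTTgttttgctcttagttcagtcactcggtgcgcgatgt

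Both windows were rich in G and C, at 72.4% for Irs1 and 72.8% for Irs2. GTCACGTGTT was 1 of the 2 longest words they shared, each 10 bases long, and it begins 117 bases before the Irs1 start and 46 bases before the Irs2 start. The other, TGTTTTGCTC, overlaps it in both genes, so that Irs1 reads GTCACGTGTTTTGCTC and Irs2 reads GTCACGTGTTGTTTTGCTC. On either strand GTCACGTGTT occurred in 0.07% of the 32851 upstream windows of this length in the table, and TGTTTTGCTC in 0.0639%. The shorter E-box CACGTG occurred in 6.02% of them, and among the genes described here in Irs1, Irs2 and Igfbp2. CAGAC was found in the Irs1 window, 78 bases before the start, and not in that of Irs2. It was also found in the windows of Igf1r, Igf2 and Igfbp2, and 42.2% of all windows hold it. The AP-1 letters TGANTCA (6.75% of windows) occurred in those of Igf1 and Igfbp2 and in neither adaptor's, and the FoxO letters TTGTTTAC (1.07%) in no window of the 9 genes listed. Insr had no window, and the other 9 genes had 13 between them. The words were chosen after the sequences were seen, and a match is a description of letters only.

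The receptors were within 2-fold in every comparison. Igf1r, the receptor through which both IGF ligands signal, read 2244 (untreated), 2171 (TGF-beta2), 2425 (SB431542) and 2301 (oxozeaenol). Its 5 kept probe sets differed by −0.05 to 0.17 on the log2 scale with TGF-beta2, with 3 of them higher and 2 lower. The largest difference among them was −0.40, in 1426565_at with oxozeaenol over TGF-beta2, where the array readings were 1340, 1346, 1177 and 1018 in the same order. Insr, the insulin receptor, read 362, 327, 317 and 397 in the same order, with the oxozeaenol array the highest. Its difference with TGF-beta2 was −0.14, and a second kept probe set, dim at 53.4 to 81.8, differed by 0.46 in the other direction. The other Insr probe set was the 1 of 27 under the filter level.

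Among the ligands, Igf2, the fetal growth factor expressed from the paternal allele, read 8777 (untreated), 8372 (TGF-beta2), 9492 (SB431542) and 9511 (oxozeaenol). The arrays differed by at most 1.14-fold from the highest to the lowest. Igf1, the ligand that also mediates growth hormone action after birth, read 5060, 4332, 4729 and 4723, with the untreated array the highest. All 4 of its probe sets were lower with TGF-beta2 than untreated, by −0.27 to −0.07, which is inside the middle 90% of all genes (−0.46 to 0.46). Macrophages are another known source of Igf1, and their marker sum was also highest in the untreated culture. That sum was lowest with oxozeaenol (73954), while Igf1 was lowest with TGF-beta2. Whether that sum had a part in the Igf1 values was not tested. Fewer cells of a type and less RNA per cell cannot be told apart in such cultures.

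Among the binding proteins, the values of Igfbp5 depended on the probe set. This gene, whose product also binds extracellular matrix, read 5032 (untreated), 4566 (TGF-beta2), 3769 (SB431542) and 6984 (oxozeaenol) in its brighter probe set. The oxozeaenol array was the highest and the SB431542 array the lowest, a difference of 0.89 or 1.85-fold, and 97.9% of genes had a lower value in that comparison. The epithelial marker sum was high on the same array, and its part in this value was not tested. A dimmer probe set of Igfbp5 (1422313_a_at) ran the other way, at 66.5, 321, 449 and 195 in the same order. In it the oxozeaenol array lay 1.12 below the SB431542 array on the log2 scale, so the probe sets of Igfbp5 disagree, and their average differed by −0.12. In the dimmer one the TGF-beta2, SB431542 and oxozeaenol arrays lay 1.96, 2.42 and 1.30 above untreated. The brighter one (1452114_s_at) has a suffix that Affymetrix gave to probe sets shared by several transcripts.

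Igfbp3, the main IGF carrier of serum, read 497 (untreated), 416 (TGF-beta2), 372 (SB431542) and 551 (oxozeaenol). Its second probe set gave the same order, at 374, 301, 270 and 422. Oxozeaenol over SB431542 was 0.54 and 0.61 in the pair, both under 2-fold. Igfbp3 thus had the same order over the arrays as the brighter Igfbp5 probe set.

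Igfbp2, a binding protein of fetal tissues, read 4837 (untreated), 5144 (TGF-beta2), 5884 (SB431542) and 6159 (oxozeaenol). It lay 0.28 and 0.35 above untreated with SB431542 and oxozeaenol, inside the middle 90% of genes, and it has 1 probe set. In the RefSeq table Igfbp2 and Igfbp5 are direct neighbours on the chromosome, and their orders over the 4 arrays were not alike. Igfbp4, the target of the protease Pappa, read 11097, 11252, 11333 and 10430 in its brightest probe set, within 1.09-fold from the highest to the lowest. With all 6 probe sets averaged, it was 0.40 higher with each inhibitor than with TGF-beta2 alone. Of its 6 probe sets, 5 lay within −0.11 to 0.11 with TGF-beta2. The sixth, the dimmest (1421991_a_at), read 79.4, 13.4, 152 and 179, which is −1.53 with TGF-beta2. Its TGF-beta2 reading lies under the added constant.

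**Figure D2:**
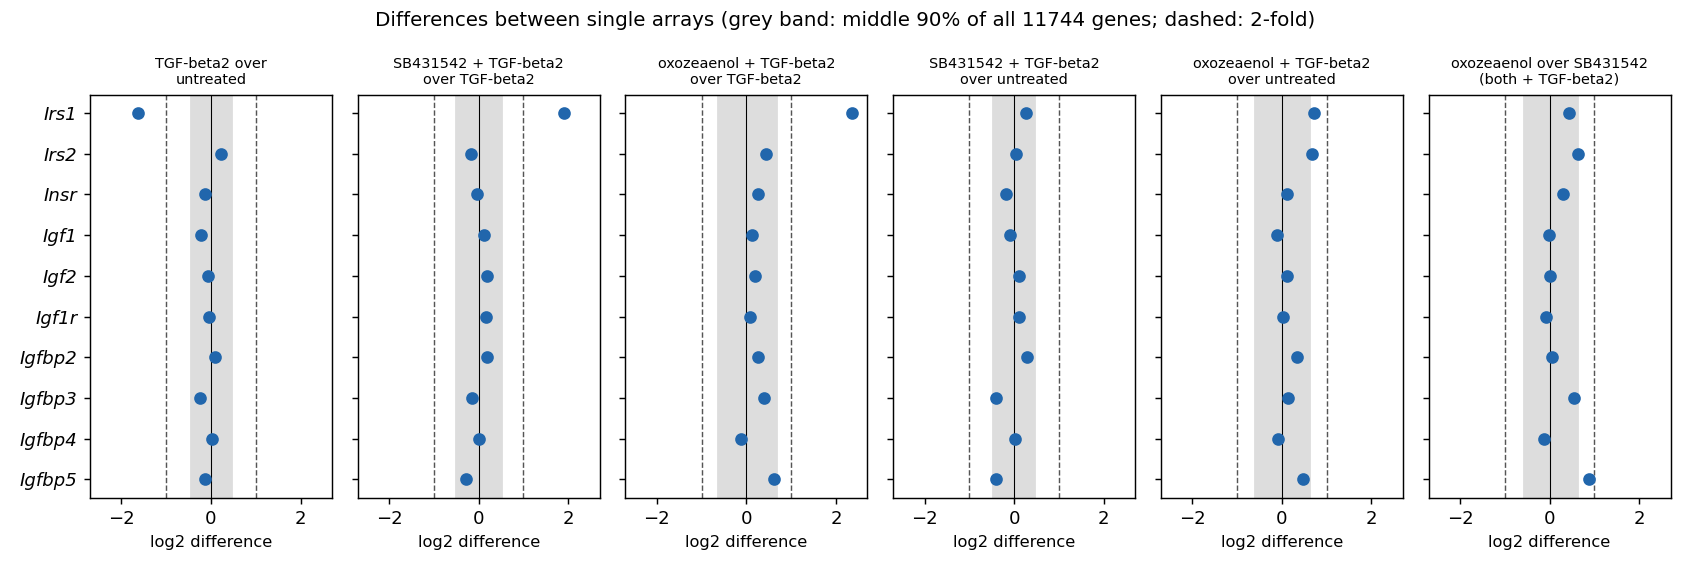
Log2 differences between single arrays for the 10 genes in 6 comparisons, 1 panel each. Points are the probe set that stands for the gene, the grey band holds the middle 90% of all 11744 genes, and dashed lines mark 2-fold. Irs1 lies outside the dashed lines in the 3 comparisons that use the TGF-beta2 array, and no other point passes them.

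Counted over the set, Irs1 was the 1 gene of 10 at least 2-fold lower with TGF-beta2 and the 1 gene at least 2-fold higher with each inhibitor over TGF-beta2 alone. In either direction, 1.04%, 1.8% and 3.99% of all genes were 2-fold apart in these 3 comparisons. No gene of the set was 2-fold apart in either comparison of an inhibitor with untreated, or between the inhibitors, where 0.851% (SB431542 over untreated), 3% (oxozeaenol over untreated) and 2.81% (oxozeaenol over SB431542) of all genes were. The comparisons share arrays and are not independent of each other. By the brightest probe set, the other 9 genes differed by −0.24 (Igfbp3) to 0.23 (Irs2) with TGF-beta2, with a median of −0.07 against −0.03 over all genes. With SB431542 over TGF-beta2 they lay between −0.28 (Igfbp5) and 0.19 (Igfbp2). With oxozeaenol over TGF-beta2 they lay between −0.11 (Igfbp4) and 0.61 (Igfbp5), with a median of 0.26 against 0.05 over all genes. All 9 were inside the middle 90% of genes in those 3 comparisons. When the kept probe sets of a gene were averaged, Igfbp5 differed by 0.91 with TGF-beta2 and by 1.00 with SB431542 over untreated, where its brightest probe set gave −0.14 and −0.41. Averaged, it differed from TGF-beta2 alone by 0.09 with SB431542 and −0.02 with oxozeaenol, where its brightest probe set gave −0.28 and 0.61.

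Beyond these genes, 91 other genes of the pathway were listed in 5 groups, of which 75 were kept, 10 were under the filter level and 6 were not analysed here. With TGF-beta2, 1 of the 75 was at least 2-fold lower and none higher, or 1.33% against 1.04% of all genes in either direction. With SB431542 over TGF-beta2, 2 were higher and 2 lower, 5.33% against 1.8%. With oxozeaenol over TGF-beta2, 5 were higher and 7 lower, 16% against 3.99%. Against untreated, 1 was higher and none lower with SB431542, 1.33% against 0.851%, and 3 were higher and 5 lower with oxozeaenol, 10.7% against 3%. Oxozeaenol over SB431542 gave 5 higher and 5 lower, 13.3% against 2.81%. The oxozeaenol array is the one with the high epithelial marker sum. It also had the lowest macrophage marker sum, at 73954 against 88975 untreated. The part of either sum in these counts was not tested. The lists were chosen with earlier results of these data known, so the shares are a description and do not measure enrichment of the pathway.

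Outside the cell, 9 of 12 genes that carry, cut or clear the IGFs were kept. None was 2-fold apart with TGF-beta2 (median −0.11) or with SB431542 over TGF-beta2 (median 0.26 against 0.03 over all genes). Pappa, the protease that cuts Igfbp4, read 3775 (untreated), 3508 (TGF-beta2), 3003 (SB431542) and 3864 (oxozeaenol). Stc1, a stanniocalcin that inhibits Pappa, read 290, 161, 319 and 480 in the same order, lowest with TGF-beta2 and highest with oxozeaenol like Irs1. It was 1.46 higher with oxozeaenol than with TGF-beta2 alone, the 1 gene of this group past 2-fold there. The related inhibitor Stc2 read 566, 503, 993 and 393, and was lower with oxozeaenol than with SB431542, by −1.29, or −0.76 with its 3 probe sets averaged. Of the Igf2 RNA-binding proteins 2 of 3 were kept, and neither was 2-fold apart in any comparison, with Igf2bp1 at 493, 546, 398 and 449 and Igf2bp3 at 1253, 1170, 1240 and 1206.

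Of 22 receptor adaptors and brakes, 16 were kept, and all were within 2-fold with TGF-beta2 and with SB431542 over TGF-beta2. The remaining Irs genes, Irs3 and Irs4, were under the filter level. With oxozeaenol over TGF-beta2, 4 of the 16 were at least 2-fold lower and 1 was higher, where 3.99% of all genes were 2-fold apart. Dok1, a docking protein that restrains receptor signalling, read 1240 (untreated), 1692 (TGF-beta2), 1070 (SB431542) and 318 (oxozeaenol), a difference of −2.33. Socs3, a cytokine-induced suppressor that also binds insulin receptors, read 1447, 2147, 1331 and 505, a difference of −2.04, or −1.44 with its probe sets averaged. The adaptors Sh2b2 (−1.20) and Dok4 (−1.06) were lower too, and both were dim, at −0.79 and −0.81 with the larger added constant of 69.8, the median signal. Grb14, which blocks the insulin receptor kinase, was the higher one, at 364, 334, 381 and 801 (1.21). Gab1, a docking protein, read 339, 320, 274 and 570, and was 1.00 higher with oxozeaenol than with SB431542, or 0.93 with median centring.

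In the PI3K, Akt and mTOR core, 34 of 38 genes were kept, and none was 2-fold apart with TGF-beta2 (median 0.01). Foxo1, a transcription factor that insulin signalling excludes from the nucleus, read 393 (untreated), 716 (TGF-beta2), 313 (SB431542) and 439 (oxozeaenol). It was highest with TGF-beta2, where Irs1 was lowest, and lowest with SB431542. Foxo1 differed by 0.83 with TGF-beta2 from untreated and by −1.14 with SB431542 over TGF-beta2, and its 3 kept probe sets agreed in side in both. With oxozeaenol over TGF-beta2, 3 of the 34 genes were at least 2-fold lower and 2 higher, beside the same 3.99% of all genes. Trib1 and Trib2, pseudokinases of a family that binds Akt or ubiquitin ligases, were lower. Trib2 read 1430, 1065, 1509 and 411 (−1.33), and Trib1 read 189, 242, 118 and 8.0, so the size of its difference (−3.15) depends on the added constant. The kinase subunit Pik3cb differed by −1.01, or −0.83 with the larger constant. The regulatory subunit Pik3r3 was 1.01 higher, or 0.94 with median centring, and Foxo4 was 1.18 higher, or 0.37 with its 2 probe sets averaged.

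Of 16 transcripts linked to FoxO factors, 14 were kept. With TGF-beta2, Pdk4, a kinase that turns off pyruvate dehydrogenase, was the 1 gene at least 2-fold apart, at 243 (untreated), 101 (TGF-beta2), 298 (SB431542) and 156 (oxozeaenol). Its difference was −1.11, or −0.88 with the larger constant, and with SB431542 it was 1.38 above TGF-beta2 alone. Cited2, a transcriptional coregulator, read 3757, 2492, 5029 and 3232, and was 1.01 higher with SB431542 than with TGF-beta2 alone, or 0.99 with the larger constant. Fbxo32, a ubiquitin ligase of muscle atrophy, read 385, 631, 235 and 984, so SB431542 over TGF-beta2 was −1.35 and oxozeaenol over SB431542 was 1.97. With oxozeaenol over TGF-beta2 the median of the 14 was 0.52 against 0.05 over all genes, with 13 of them within 2-fold. The 1 past it was Bcl2l11, which encodes the cell death protein Bim, at 535, 573, 547 and 1412 (1.27, or 0.70 with its 5 probe sets averaged). Gadd45a, a stress gene, was the 1 listed gene at least 2-fold above untreated with SB431542 (1.04, or 0.99 with the larger constant).

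**Figure D3:**
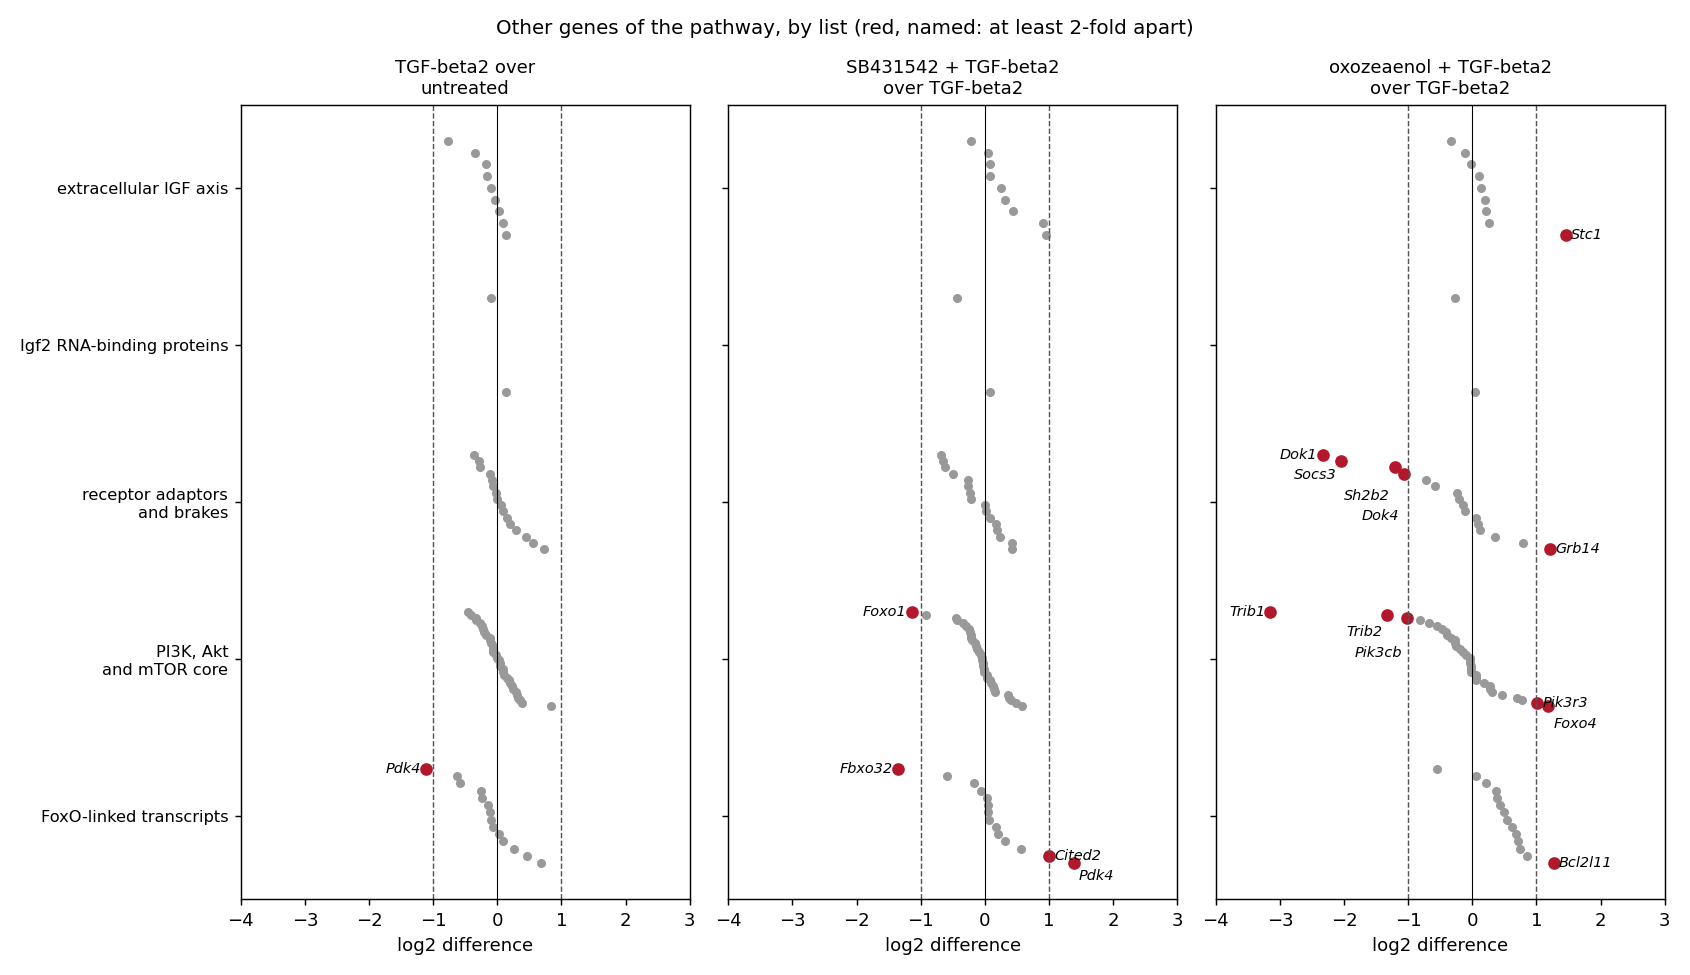
Log2 differences of the 75 kept pathway genes, by list, for TGF-beta2 over untreated and each inhibitor over TGF-beta2 alone. Each point is a gene, spread vertically by rank within its list, and red points with names lie past the dashed 2-fold lines. Pdk4 is the 1 red point with TGF-beta2, and 12 genes are red with oxozeaenol.

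The genes whose levels ran most like those of Irs1 were found by the root mean square distance between 3 log2 differences from untreated, over the same 4 arrays. In that order they were Vars2 (0.30), Alx1 (0.35), Calhm5 (0.35), Gas1 (0.35), Lpar4 (0.39) and Bmp4 (0.39), and 12 of 11743 genes lay within 0.50. The median distance over all genes was 1.05. Gas1, a hedgehog co-receptor, read 4820 (untreated), 2082 (TGF-beta2), 5887 (SB431542) and 5925 (oxozeaenol), with 2 of its 3 probe sets lower with TGF-beta2. Lpar4, a receptor for lysophosphatidic acid, read 646, 296, 675 and 873, with all 3 of its probe sets lower. Bmp4, a growth factor of the palate mesenchyme, read 239, 109, 317 and 470. Alx1, a homeobox gene of the facial mesenchyme, read 337, 131, 317 and 470, with 1 of its 2 probe sets lower with TGF-beta2. The mitochondrial valyl-tRNA synthetase gene Vars2 read 100, 33.5, 123 and 159, and the channel family gene Calhm5 read 194, 67.6, 178 and 412. With TGF-beta2 the 6 lay between −1.27 (Calhm5) and −0.995 (Bmp4), beside −1.63 for Irs1, which was chosen by its decrease there. Within the insulin and IGF genes the distances ran from 0.95 (Igfbp3, the 2284th gene in order) to 1.08 (Irs2), around the all-gene median of 1.05. The distance includes the TGF-beta2 difference by which Irs1 was chosen, so these distances are a description and do not measure likeness. Which 6 genes were nearest depended on the filter, with 3 of them shared when no filter was used and 2 with the stricter one.

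**Figure D4:**
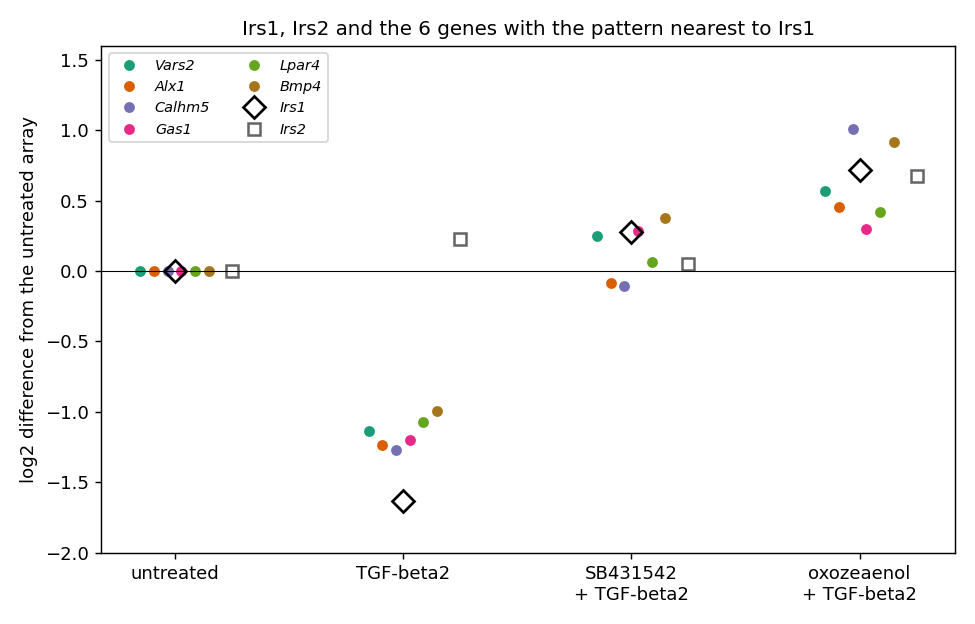
Log2 difference from the untreated array for Irs1 (open diamonds), Irs2 (open squares) and the 6 genes nearest to Irs1 (filled circles), on each array. Points are shifted sideways for legibility, and each is a single array. With TGF-beta2, Irs1, which was chosen by its decrease there, lies at −1.63, the 6 others between −1.27 and −0.995, and Irs2 at 0.23.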

How the data were processed

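RNA of 4 cultures was hybridised to Affymetrix 3′ expression arrays, 1 per group, from 500 ng of total RNA per the labels' protocols. The authors deposited intensities on a linear scale for 45101 probe sets. GCOS is named in the submitters' processing notes, while no version, algorithm or setting was found in the sources used here. Precision is limited by the number of arrays.

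From the deposited intensities, 64 control probe sets were left out, and 34945 of 45037 others had 1 gene symbol in the platform annotation. Values were converted to log2(value + 21.7), filtered and reduced to 1 probe set per gene as described above, with Python 3.11.15, pandas 2.3.3 and numpy 2.4.6. With 1 array a group no test was run. Genes at least 2-fold apart were counted, beside the share over all 11744 genes. The counting steps were tested on simulated data. All 10 genes were named, with listed genes at least 2-fold apart or given as examples, and the 6 genes nearest to Irs1. The genes and the lists were chosen with earlier results of these data known. The 7 alternatives were 2 other pseudocounts, no filter, a filter at the 75th percentile, median centring, quantile normalization and averaged probe sets.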

Additional observations from a re-analysis of the deposited data

How the results depend on the processing

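No paired analysis was possible because each group held 1 array, and no array could be left out of a comparison. Under all 7 alternatives Irs1 kept its direction and its side of 2-fold in the 6 comparisons, with −1.68 to −1.51 for TGF-beta2 over untreated, 1.78 to 1.96 for SB431542 and 2.21 to 2.41 for oxozeaenol over TGF-beta2. It ranked between 2 and 22 from the lowest with TGF-beta2. The count of the 10 genes at least 2-fold apart differed in 1 case, SB431542 over untreated with averaged probe sets, where 1 gene, Igfbp5, was higher. The stricter filter removed Irs2 and Insr. Of the values of the other 9 genes, 362 stayed within 1.5-fold on their side of 2-fold and 4 moved, all of Igfbp5 with averaged probe sets. The sign varied between settings for Igfbp4 in 6 comparisons, where averaging gave −0.26 with TGF-beta2 and 0.40 with each inhibitor over it, and for Igf1r, Igf2, Igf1, Igfbp2 and Insr in some. Igfbp5 changed sign with averaging in every comparison except oxozeaenol over untreated. Averaged, it was 0.91 with TGF-beta2 and 1.00 with SB431542 over untreated. Over TGF-beta2 alone it was 0.09 with SB431542 and −0.02 with oxozeaenol, and oxozeaenol over SB431542 was −0.12.

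Counts of the pathway lists moved more. With the pseudocount at the median they were 0 lower (TGF-beta2), 1 higher (SB431542 over TGF-beta2), 3 higher and 4 lower (oxozeaenol over TGF-beta2), 0 higher (SB431542 over untreated) and 2 higher (oxozeaenol over SB431542). With no filter they were 2 higher and 2 lower (TGF-beta2) and 3 higher (SB431542 over untreated). With the stricter filter, which tests fewer genes, they were 0 lower, 1 higher, 3 higher and 3 lower in the first 3 comparisons, 3 lower for oxozeaenol over untreated and 3 higher over SB431542. The last count was also 3 with median centring, quantile normalization and averaged probe sets. Averaging gave 1 higher with TGF-beta2 and 1 higher with SB431542 over TGF-beta2. Of the genes nearest to Irs1, 3 of 6 were shared without a filter, 2 after the stricter filter and 3 after averaging. Over all genes, counts higher and lower with TGF-beta2 went from 79 and 43 to 350 and 278 when unfiltered. The stricter filter gave 30 and 17, and the larger pseudocount gave 50 and 21. The filters change which genes are counted. Without a filter there were 18193 genes, 85 of them listed, and with the stricter one 7097 and 59, against 11744 and 75. A larger added constant makes every log2 difference smaller. What else entered these movements was not tested.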
